A study of Mus musculus with 7 samples.

Results

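The p65 (RelA) sites described here were the 307 summits of the p65 list that lay on chromosomes 1 to 19 and X and not in crowded runs, of 797 in the list, and they were set against the 5433 summits of the wild-type IRF4 list that lay on the same chromosomes outside those runs, of 5630. A crowded run was 3 or more p65 summits, each at most 50 kb from the next. The 39 runs took out 298 p65 summits, and the unplaced contigs and the mitochondrial genome another 192. The summits left out were not used in the comparisons below. A summit is the single base at which a ChIP-seq peak, a stretch of DNA enriched by an antibody, is highest.

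The study mapped both factors in regulatory T (Treg) cells from the spleen of C57BL/6 mice by chromatin immunoprecipitation and sequencing. The p65 list came from 2 samples of wild-type (WT) cells treated with PMA and ionomycin for 30 min. The IRF4 list came from 3 samples of WT cells kept for 48 h under anti-CD28 and anti-CD3 stimulation, and a further IRF4 list from 2 samples of RelA-deficient (p65KO) cells kept in the same way. Factor, stimulus, time and the authors' q cut-off (0.05 for p65, 1e-06 for IRF4) therefore differed together between the p65 and IRF4 lists and cannot be told apart. The sources used here do not say how the p65KO cells lost RelA. Each list pooled its samples and nothing says whether these came from separate animals, so the values carry no error between samples, and intervals and tests cover counting over summits only. Read depth is unknown, and the labelled cell type could not be checked against marker genes, since summit lists hold no expression.

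NF-κB is a family of dimers made from RelA, RelB, c-Rel, p50 (encoded by Nfkb1) and p52 (encoded by Nfkb2). In resting cells inhibitors such as IκBα (encoded by Nfkbia) hold RelA dimers in the cytoplasm, and stimulation of the T cell, PMA included, destroys the inhibitor within minutes and lets the dimers bind DNA at κB motifs. Among the genes they switch on are those of the inhibitors and of the family itself, a feedback loop. IRF4 is made after stimulation, binds DNA largely together with BATF-JUN dimers, and is needed for the effector state of Treg cells.

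Promoters of NF-κB family and feedback genes are shown where the locus had a p65 summit, as described next, and the promoter a κB match. The promoter of Birc3, whose locus also had a p65 summit, held no match and is not shown. Gene spans in mm9, the build of the lists, were background knowledge rounded outward to 10 kb, and a locus was the span with 50 kb on either side. The sequences are RefSeq's on GRCm38.p6, another build, so they cannot be set against the summit positions base by base. Each runs from 250 bases before the gene's start to 50 after it, 5′ to 3′ on the gene's strand, and capitals mark matches to GGGNNNTTCC, a form of the κB motif, on either strand. The windows are chr12:55492598-55492897 (minus strand) for Nfkbia, chr10:19015361-19015660 (minus strand) for Tnfaip3, chr19:46304487-46304786 (plus strand) for Nfkb2 and chr11:23770920-23771219 (minus strand) for Rel.
Nfkbia: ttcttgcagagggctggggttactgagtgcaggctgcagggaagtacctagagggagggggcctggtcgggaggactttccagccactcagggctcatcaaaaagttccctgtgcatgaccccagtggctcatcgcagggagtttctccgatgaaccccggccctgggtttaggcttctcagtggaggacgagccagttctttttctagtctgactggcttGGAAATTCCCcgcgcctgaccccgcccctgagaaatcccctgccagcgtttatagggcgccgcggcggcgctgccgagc
Tnfaip3: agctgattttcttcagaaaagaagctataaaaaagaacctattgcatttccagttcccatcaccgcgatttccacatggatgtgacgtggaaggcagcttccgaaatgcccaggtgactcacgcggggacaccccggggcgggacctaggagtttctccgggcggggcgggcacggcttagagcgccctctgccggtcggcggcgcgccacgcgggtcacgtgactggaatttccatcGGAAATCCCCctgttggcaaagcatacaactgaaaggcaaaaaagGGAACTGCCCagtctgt
Nfkb2: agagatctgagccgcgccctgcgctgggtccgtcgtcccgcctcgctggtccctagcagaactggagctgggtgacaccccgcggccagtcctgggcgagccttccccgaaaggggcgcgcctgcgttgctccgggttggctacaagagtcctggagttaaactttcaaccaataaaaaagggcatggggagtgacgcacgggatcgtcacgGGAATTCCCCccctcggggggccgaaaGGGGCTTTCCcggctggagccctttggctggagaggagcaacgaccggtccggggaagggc
Rel: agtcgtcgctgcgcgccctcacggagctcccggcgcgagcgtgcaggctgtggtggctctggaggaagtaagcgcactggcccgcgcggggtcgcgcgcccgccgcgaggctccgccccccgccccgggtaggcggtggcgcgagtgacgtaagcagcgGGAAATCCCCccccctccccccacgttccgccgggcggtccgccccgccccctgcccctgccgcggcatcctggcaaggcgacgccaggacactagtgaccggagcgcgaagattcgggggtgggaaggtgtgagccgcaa
The match in the Nfkbia promoter, GGAAATTCCC, began 29 bases before the gene's start. The Tnfaip3 window held GGAAATCCCC beginning 12 bases before the start and GGAACTGCCC after it. A second Tnfaip3 window in the table and 2 more of Nfkb2, from other annotated starts, also held matches. The Nfkb2 window shown held GGAATTCCCC and GGGGCTTTCC, beginning 38 and 11 bases before the start, and the Rel window GGAAATCCCC, beginning 91 bases before it. Of all 32851 promoter windows of this length in the table, 5.56% held a match, and of the 27025 genes 6.31% had a match in any window. Among the named genes whose locus had a p65 summit, 7 had a promoter entry and 4 of these a match. Those 4 are the genes shown, and Birc3, Irf4 and Junb had none. Among the named genes without a p65 summit 24 had an entry and 4 a match. Nfkb1 and Relb have no entry. Neither GAAANNGAAA, a form of the interferon-stimulated response element that IRF factors bind (3.44% of all windows), nor, outside Tnfaip3, TGANTCA, the AP-1 motif (7.81%), occurred in these 4 windows. A match describes letters only.

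Most of the 307 p65 summits at 30 min, 295 of them, lay in none of the named gene loci. Of the 12 p65 summits in 38 loci grouped by role, 9 lay at genes of the NF-κB pathway itself. Of the 105 IRF4 summits at 48 h in these loci, 16 did. How often gene loci in general held a p65 or an IRF4 summit was not tested. A further 4 loci (Rbpj, Hif1a, Evl and Bcl2l11), with 28 IRF4 summits and no p65 summit, were listed because they hold many IRF4 summits, so their counts were fixed by that choice. Of the 38 loci, 10 held a p65 summit and 28 a WT IRF4 summit, and 6 of them held both. None of the 12 p65 summits in these loci had a WT IRF4 summit within 200 bp, the distance at which a summit is called on site here. The IRF4 list was the far longer one. Locus counts here and below cover only the compared summits, so a locus within a crowded run can appear empty. The loci and their grouping were chosen with earlier results of these data known, and their counts are a description without a test.

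Of the 11 loci of the NF-κB family and its feedback genes, 7 held p65 and 5 IRF4. They had 9 p65 and 16 WT IRF4 summits. Scores are the authors' −log10 significance values of each peak and are compared within a list only.

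At Nfkb1, which encodes p105, the precursor of p50, p65 had its summit at chromosome 3, 135354535 (mm9 here and below, 1-based), with a score of 40.8. That was the highest score among the 217 p65 summits with no WT IRF4 summit within 1 kb. WT IRF4 had 4 summits in the locus. They lay 25693 bp below the p65 position in coordinate with a score of 159.9, 2228 bp below it with 22.2, 9062 bp above it with 70.6 and 20240 bp above it with 72.8. In p65KO cells IRF4 had 3 of these 4, with scores of 165, 31.5 and 53.0, and the 1 without a partner was the one nearest to p65. The p65 site thus stood among IRF4 sites and on none of them.

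Tnfaip3, encoding the NF-κB inhibitor A20, showed the same arrangement. Its main p65 summit, at chromosome 10, 18735268, scored 33.4, and a weaker one 46825 bp above it scored 5.21. The 5 WT IRF4 summits lay 27632 bp below (47.5), 6695 bp below (15.8), 3454 bp below (13.8), 13049 bp above (31.2) and 53026 bp above the main p65 summit (39.8). In p65KO cells the farthest on each side were listed, with 18.6 and 41.0. At Rel, which encodes c-Rel, p65 scored 14.8 at chromosome 11, 23671021. The nearest WT IRF4 summit was 15543 bp above it (19.7) and another lay 64134 bp below it (39.3).

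The other p65 loci of the group had no IRF4 summit of either genotype among those compared. Nfkbia had 2 p65 summits 796 bp apart on chromosome 12, at 56592964 (26.2) and 56593760 (8.62), and the nearest WT IRF4 summit was 98874 bp from the stronger. Nfkb2 had one at chromosome 19, 46379196 (27.3), with the nearest WT IRF4 summit 302188 bp away. Relb, encoding the partner of p52, had one at chromosome 7, 20214805 (12.7). Birc3, encoding the ubiquitin ligase cIAP2, had one at chromosome 9, 7873107 (8.73). IRF4 alone marked Nfkbiz, encoding the nuclear protein IκBζ (2 WT summits, the higher at 14.5), and Traf1, encoding a TNF receptor adaptor (3, the highest at 28.6). At Rela and Nfkbie neither factor had a summit among those compared.

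**Figure D1:**
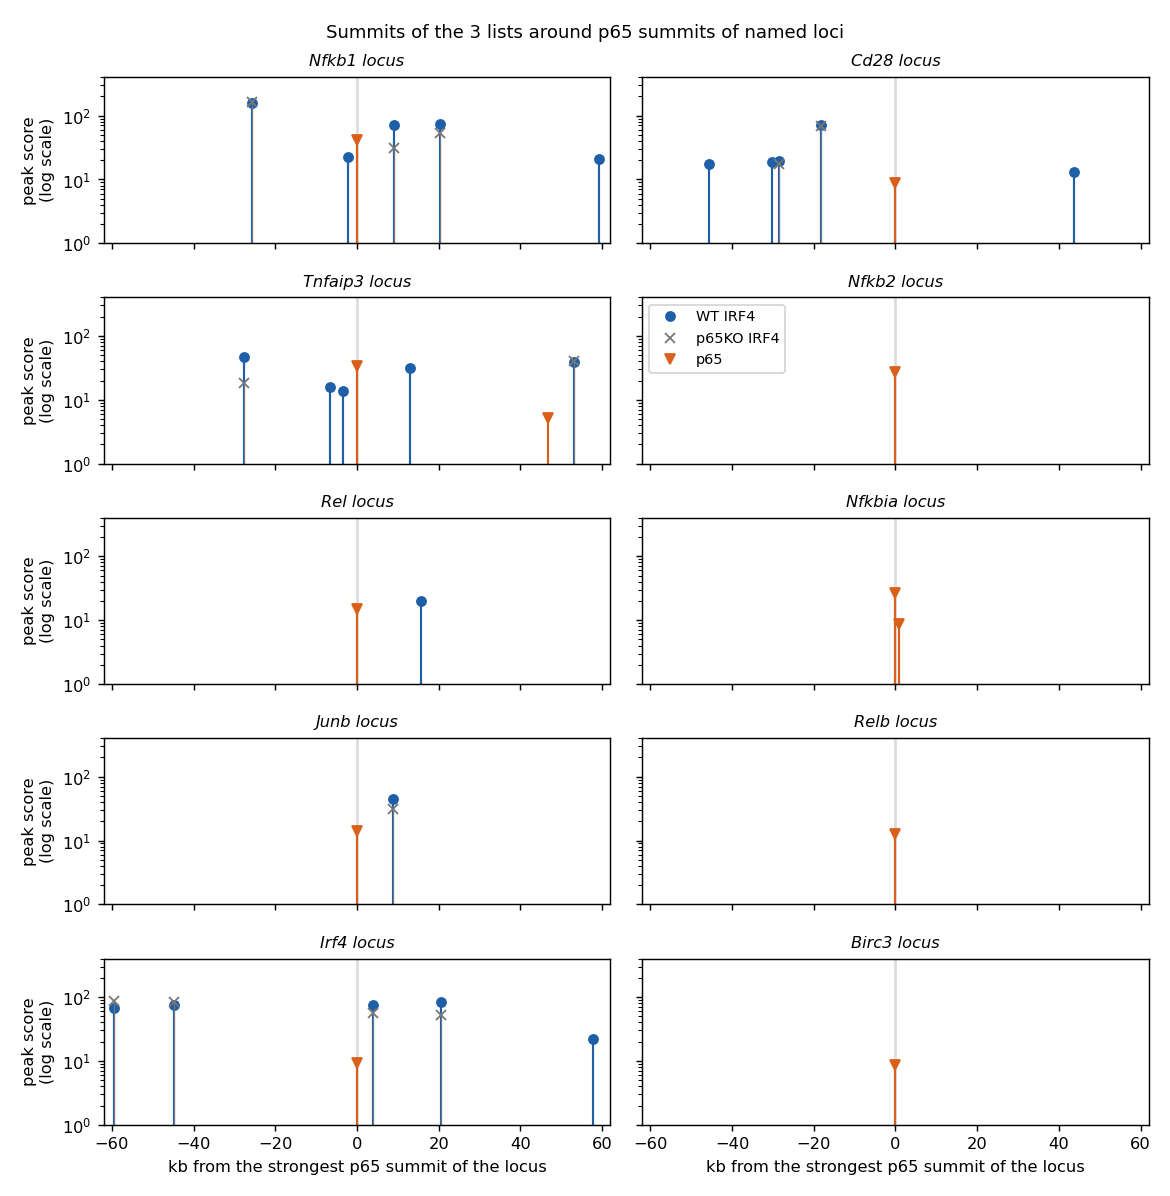
Summits of p65 (orange), WT IRF4 (blue) and p65KO IRF4 (grey) around the strongest p65 summit of 10 named loci, as the authors' peak score (log scale) against distance in kb, with stems from 1; summits just past the edge of a locus are drawn too. Around Nfkb1, Tnfaip3 and Irf4 IRF4 summits stand on both sides of p65 and none on it, while Nfkb2, Nfkbia, Relb and Birc3 show p65 alone.

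Of the named loci of Treg identity, costimulation and the effector state, few held a p65 summit. Over all 38 loci grouped by role IRF4 had summits at 28 and p65 at 10. These loci were chosen with earlier results known, and the share of gene loci in general with either factor was not tested. By group, IRF4 had summits at 5 of 6 loci of identity and costimulation, 4 of 4 of the TNF receptor family, 5 of 6 of effector regulators and products and 4 of 4 of factors of the resting state, counts too small to set a group apart from all loci. p65 had one at 1, 0, 1 and 0 of these. The p65 summits were those at Cd28 and at Irf4.

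The locus of Irf4 itself held summits of both factors. p65 had a summit at chromosome 13, 30884345, with a score of 9.35. WT IRF4 had 4 in the locus, at 59606 bp below (66.1), 44858 bp below (75.4), 3821 bp above (74.3) and 20612 bp above it (83.4). Each of the 4 was also listed in p65KO cells, with scores of 85.4, 82.1, 56.2 and 53.1. The IRF4 sites in the locus of its own gene were thus listed in cells with and without RelA.

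The longest run of IRF4 summits near a p65 site covered the costimulatory receptor genes Cd28, Ctla4 and Icos. When summits of both lists at most 50 kb apart were joined, it ran over 310 kb of chromosome 1, from 60801381 to 61111515, with 21 WT IRF4 summits, the most of any joined locus, and 1 p65 summit. That summit, at 60847004, scored 8.73 and had 5 WT IRF4 summits within 50 kb, the nearest 18203 bp away with a score of 71.7. The IRF4 summits next to it, 18203 bp below and 43.7 kb above in coordinate, were linked only through this p65 summit. The Ctla4 locus itself, encoding an inhibitory receptor that Treg cells need, held 11 WT IRF4 summits and no p65 summit.

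Other loci of these groups had IRF4 alone. Prdm1, encoding Blimp-1, a regulator of effector Treg cells, had 5 WT summits with scores from 13.1 to 222.7, the highest at chromosome 10, 44164415. Bach2, encoding a repressor that keeps T cells in the resting state, had 16, up to 137.8, over the longest span of the list. Batf had 2 (33.9 and 108), and Il2ra, encoding the IL-2 receptor α chain, 4, up to 122.6. The adjoining genes Tnfrsf4 and Tnfrsf18, encoding OX40 and GITR, shared 2 (123.7 and 38.2). Rbpj, the DNA-binding partner of Notch and one of the 4 genes listed for their many IRF4 summits, had 13, up to 135. At Foxp3, the lineage factor of Treg cells, and at Klrg1 the compared summits of the WT list included none and those of the p65KO list 1 each (20.1 and 22.0).

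Among 7 early activation genes p65 marked Junb, encoding a partner of BATF, at chromosome 8, 87500444 (14.1), with a WT IRF4 summit 8819 bp away (44.4). IRF4 was also listed at Cd69, Icam1, Egr2 and Cd83, and neither factor had a compared summit at Myc and Irf1.

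**Figure D2:**
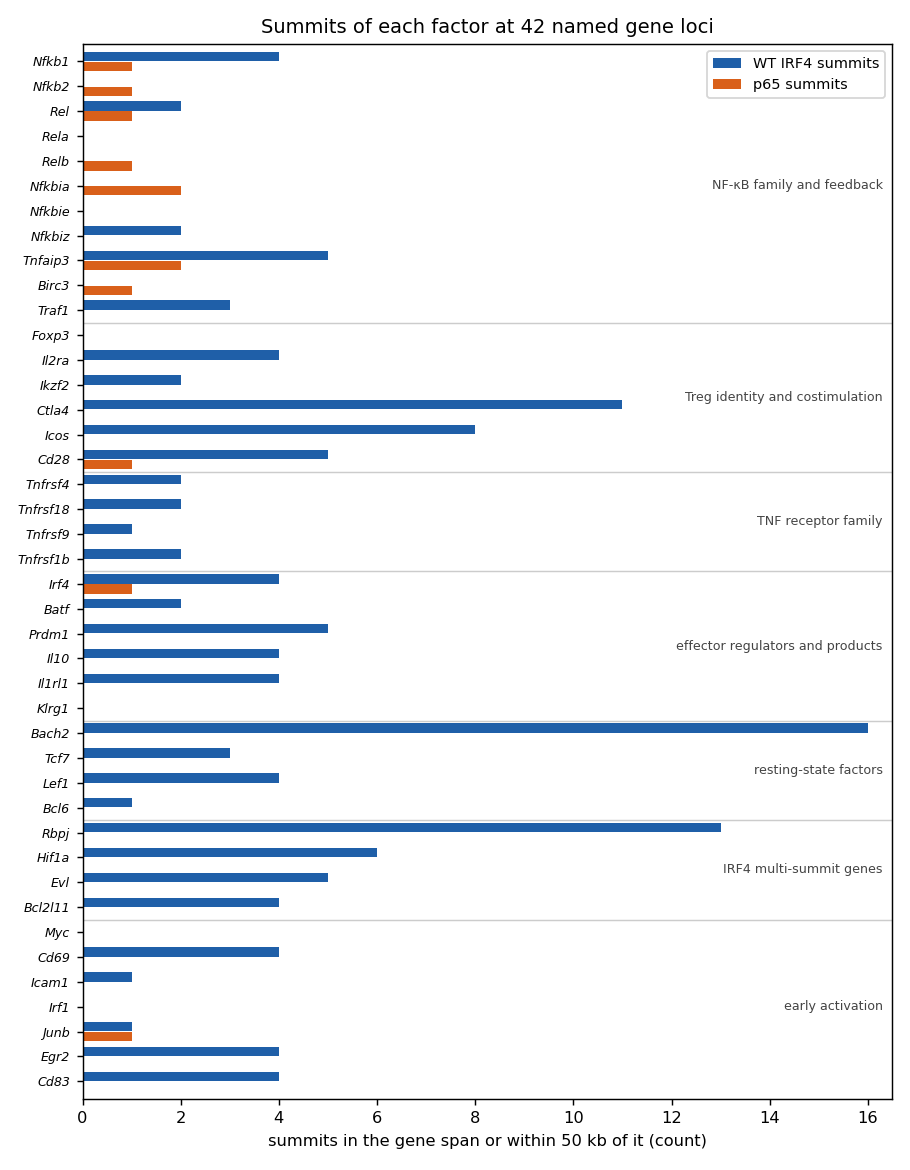
Number of p65 (orange) and WT IRF4 (blue) summits in each of 42 gene loci, a locus being the gene span with 50 kb on either side, so that long genes and genes close together count more or the same summits. p65 bars stand at 7 of 11 loci of the NF-κB group, and the group of multi-summit genes was chosen for its number of IRF4 summits.

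Part of the p65 sites coincided with IRF4, and these had the higher p65 scores. Of the 307, 79 (25.7%, 95% Wilson interval 21.2 to 30.9) had a WT IRF4 summit on site. With the p65 positions moved along the chromosome by 0.2 to 1 Mb, 0.168% of them met one. Over the whole p65 list, crowded and unplaced summits included, the share was 28.2%. The median p65 score was 39.8 on site (interquartile range 20.3 to 79.2) and 8.73 elsewhere (5.45 to 12, n = 228). The 2 ranges overlapped, from 3.64 to 329 on site and from 1.92 to 40.8 elsewhere, but nothing above 40.8 lay off an IRF4 site. Among the 50 highest p65 summits 47 were on site, and among the 100 lowest 4 were.

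The on-site pairs were tightly aligned. The median gap between the p65 and IRF4 summits was 14 bp, and 55 of 79 (69.6%, 58.8 to 78.7) were within 50 bp. At the limit of 200 bp the last pairs inside were 193 and 197 bp apart and the next outside 201 and 256 bp. The 10 highest on-site p65 summits scored from 167 to 329, lay 4 to 120 bp from WT IRF4 and 0 to 70 bp from a p65KO IRF4 summit, and only the highest of them, at chromosome 9, 35112987, had another WT IRF4 summit within 50 kb. The WT IRF4 summits at these positions scored from 187 to 319, in a list whose median was 26.6 and whose highest score was 319, and the p65KO ones from 169 to 351. The highest p65 sites thus had a summit in all 3 lists, p65KO IRF4 included. No input library was used in peak calling per the peak names, and the part of antibody-independent signal at these positions was not tested. In all, 63 of the 79 (79.7%, 69.6 to 87.1, against 0.332% of their moved positions) also had a p65KO IRF4 summit on site. Among WT IRF4 summits beyond 50 kb of p65 the share with a p65KO summit was 65.2% (63.9 to 66.5). A p65KO summit also lay on site for 18 of the 228 others (7.89%, 5.05 to 12.1, against 0.0564%), together 81 of 307 (26.4%, against 0.126%).

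**Figure D3:**
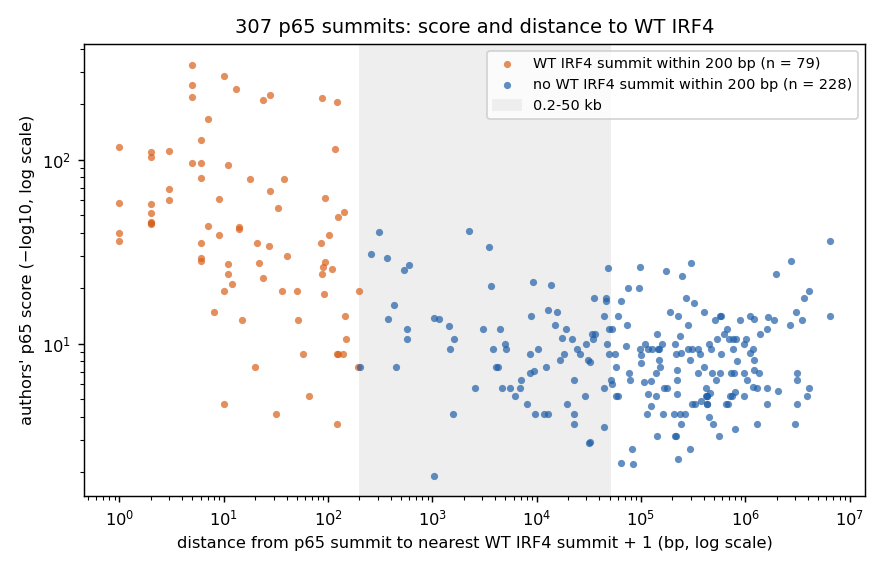
Each point is 1 of the 307 p65 summits, by the distance to the nearest WT IRF4 summit plus 1 bp (log scale) and the authors' p65 score (log scale). Points at most 200 bp away (orange, n = 79) reach 329, and the others (blue, n = 228) at most 40.8.

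The 20 highest p65 summits with no WT IRF4 summit within 1 kb scored from 17.6 to 40.8, and those of Nfkb1, Tnfaip3, Nfkb2 and Nfkbia were among the highest 6. Of the 20, 8 had a WT IRF4 summit within 50 kb, beside 68 of all 217 such p65 summits (31.3%), and 3 a p65KO IRF4 summit on site, beside 16 of 217 (7.37%). The counts in the 20 are too small to set them apart. These 3 were at chromosome 14, 112768257 (35.9), chromosome 8, 57945645 (24.0) and chromosome 5, 91356474 (23.2). The 1 of the highest 6 without a p65KO summit or a named gene, at chromosome 12, 45817307 (28.2), lay 2766388 bp from WT IRF4. Sites near IRF4 included chromosome 18, 33356479 (20.6), 3620 bp from an IRF4 summit of 65.6, and chromosome 10, 80402699 (21.6), 9257 bp from one of 11.7. The lowest p65 scores were 1.92 and 2.22.

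IRF4 summits were more frequent around p65 sites than around moved positions, and most of all close by. A mean of 0.560 WT IRF4 summits lay 0.2 to 50 kb from a p65 summit, against 0.280 at the 8 moved sets (lowest 0.201, highest 0.407), a ratio of 2.00. At least 1 lay there for 101 of 307 p65 summits (32.9%, 27.9 to 38.3), against 17.9% of moved positions. Only 227 of the 307 had no other of these p65 summits within 50 kb, so that some IRF4 summits were counted for more than 1 p65 summit. Per kb and 100 p65 summits there were 2.85 at 0.2 to 1 kb (0.235 at moved positions), 1.26 at 1 to 5 kb (0.294), 0.554 at 5 to 10 kb (0.307), 0.478 at 10 to 25 kb (0.251) and 0.430 at 25 to 50 kb (0.294). The last value lay within the range of single moved sets (0.166 to 0.472), and the 4 nearer ones above theirs. The nearest interval rests on 14 IRF4 summits.

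The excess depended on how far the positions were moved. It was 1.57 with shifts of 0.11 to 0.17 Mb, which stay in the same neighbourhood, and 3.18 with shifts of 2 to 5 Mb. It was 1.90 without the p65 summits of the 42 named loci and 1.82 for p65 summits with no IRF4 within 1 kb, counted from 1 kb outward. With only the highest p65 summit kept per 50 kb (n = 267) it was 1.92. These subsets were tried after the data were seen.

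p65 sites with and without IRF4 on site were not told apart by their flanks. Of the 79 on site, 22 (27.8%) had a further WT IRF4 summit at 0.2 to 50 kb, against 15.4% of their moved positions, and of the 228 others 79 (34.6%) had one, against 18.7%. The odds ratio was 0.729 (95% interval 0.394 to 1.32; by Fisher's exact test, two-sided, the p-value was 0.331, and 0.331 adjusted over 2 tests), so that no difference was detected and either direction is within the interval. It turned to 1.71 (exact test, p = 0.00466) when crowded runs were kept. With partners counted to 1 kb and flanks from 1 kb it was 0.990. Beyond 5 kb the on-site values rest on few IRF4 summits (2 at 5 to 10 kb, where the moved sets reached 0.685 per kb and 100 p65 summits), and a difference in reach between the profiles was not tested.

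**Figure D4:**
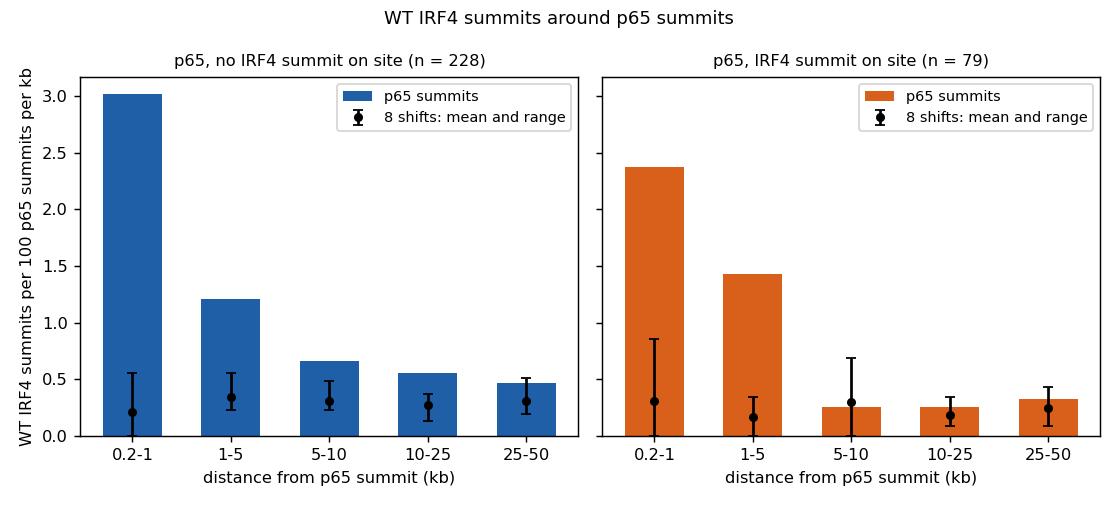
WT IRF4 summits per 100 p65 summits and per kb, by distance from p65 in kb, for p65 summits without (left, n = 228) and with IRF4 on site (right, n = 79). Bars are the p65 summits and black points the mean of 8 moved sets with their lowest and highest. Bars are tallest at 0.2 to 1 kb. Without IRF4 on site only the bar at 25 to 50 kb lies within the moved range, and with IRF4 on site every bar beyond 5 kb does.

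Off IRF4 sites, p65 summits of higher score were flanked more often in these lists, but the difference did not pass the test. A WT IRF4 summit lay at 0.2 to 50 kb for 44 of 107 above the median score (41.1%) and for 35 of 121 at or below it (28.9%), an odds ratio of 1.71 (0.954 to 3.09; by Fisher's exact test, two-sided, the p-value was 0.0696, and 0.139 adjusted). Under 9 alternatives the odds ratio ran from 1.33 to 1.78 and did not pass the test either. With the p65KO IRF4 list in place of the WT list it was 2.33 (exact test, unadjusted p = 0.0045). With runs joined at 25 kb in place of 50 kb it was 2.17 (exact test, unadjusted p = 0.00668), and with crowded runs kept 1.86 (exact test, unadjusted p = 0.00157).

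Of the 307 p65 summits 21 had 3 or more WT IRF4 summits at 0.2 to 50 kb. Of these, 1 was on an IRF4 site, beside 79 of all 307, and 7 had their nearest IRF4 summit between 200 bp and 1 kb, so that the count rests on the limit of 200 bp. Those at chromosome 1, 60847004 and 140041869 had 5 each, and both scored 8.73. Nfkb1, Tnfaip3 and chromosome 1, 64579077 (4.15) followed with 4. Another 16 p65 summits had 3 each, and those with the highest p65 scores are named here. They were chromosome 6, 133962330 (40.6), chromosome 13, 74666451 (29.3) and chromosome 2, 122507896 (26.9). Chromosome 9, 56108390 (16.2) and chromosome 11, 88831841 (13.5) came after them. At these named sites the nearest IRF4 summit lay 306 to 590 bp away, and the site on chromosome 13 had a p65KO IRF4 summit 3 bp away. The others with 3 had lower p65 scores. The p65 summits with 4 or 5 flanking IRF4 summits thus scored from 4.15 to 40.8.

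The IRF4 list of RelA-deficient cells gave a like picture. A mean of 0.459 p65KO IRF4 summits lay 0.2 to 50 kb from a p65 summit, against 0.213 at moved positions (14.7% of which had at least 1), a ratio of 2.15, and 8 of 8 moved sets lay below the observed mean, as they did for the WT list. The nearest p65KO summits were 9097 bp from the p65 summit of Nfkb1, 27544 bp from that of Tnfaip3 and 64166 bp from that of Rel. There the WT list had summits at 2228, 3454 and 15543 bp, with scores of 22.2, 13.8 and 19.7. At Irf4, Junb and Cd28 the nearest summits lay at like distances (p65KO 3816, 8810 and 18197 bp, WT 3821, 8819 and 18203 bp). The p65KO list was shorter (4212 against 5433 summits), and a loss of IRF4 next to p65 was not tested. Of the 140 WT IRF4 summits at 0.2 to 50 kb from p65, 87 (62.1%, 53.9 to 69.8) had a p65KO summit within 200 bp, and of the 5214 beyond 50 kb 3401 (65.2%, 63.9 to 66.5), intervals that overlapped. For the 79 on site the share was 79.7% (69.6 to 87.1), an interval above that of the distant ones. The on-site summits also had a higher median IRF4 score (53.0 against 26.4), and the part of score in this was not tested.

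Seen from IRF4, p65 was rare. Of the 5433 WT IRF4 summits 79 (1.45%) had one of the 307 p65 summits on site, 140 (2.58%) at 0.2 to 50 kb and 5214 (96.0%) none within 50 kb. The p65 summits left out were not counted here. The median IRF4 score was 53.0 on site (25.1 to 101), 26.8 in the flanks (19.4 to 44.3) and 26.4 beyond 50 kb (18.1 to 43.5). The flanking and the distant IRF4 summits thus had medians close to each other, and those on site a higher one. Of the 50 highest IRF4 summits 12 had p65 on site, 4 at 0.2 to 50 kb and 34 none within 50 kb. The highest of those 34 were at chromosome 13, 113077514 (249.4, 553 kb from p65) and chromosome 9, 95052344 (249.1). The summit of Prdm1 was the sixth of them, 11190 kb from the nearest of the 307 p65 summits. Each of the 10 highest IRF4 summits without p65 within 50 kb had a p65KO summit within 23 bp.

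Joined at 50 kb, the summits of both lists made 3581 loci, of which 136 held both factors, 131 p65 alone and 3314 IRF4 alone. The loci with both took 158 of the 307 p65 summits. They held 3 or more IRF4 summits in 34 of 136 cases (25%), against 412 of 3314 (12.4%) of loci with IRF4 alone, and 5 or more in 15 (11.0%) against 89 (2.69%). Loci with 3 or more IRF4 summits covered a median of 50.5 kb and can meet a p65 summit more easily. p65 summits also took part in the joining, so that one can link IRF4 summits more than 50 kb apart, as at Cd28. The part of either in the difference was not tested.

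The chromosomes took unlike shares of the lists. Chromosome X held 16 of 307 p65 summits (5.21%, 3.23 to 8.30) and 58 of 5433 WT IRF4 summits (1.07%, 0.827 to 1.38), intervals that did not overlap. The p65 share of X was alike with IRF4 on site (4 of 79) and without (12 of 228). Some of the p65 summits of X lay near each other, from position 30285193 to 31335443 and from 120161269 to 121951673. The intervals take summits as independent. On chromosome 2 there were 6 p65 and 428 WT IRF4 summits, and on chromosome 1, 22 and 463.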

How the data were processed

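The authors deposited 1 list of peak summits for each group, with a −log10 significance score per peak; whether of the p-value or the q-value is unknown. Per the submitters' processing notes, MACS2 2.1.0, Subread and featureCounts were used with build mm9, and per the peak names peaks were called without input. Other calling settings, not given in the sources used here, could change which summits were listed, as could the way samples were combined. Read depth is unknown. Column 3 of each list was taken as the 1-based position.

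p65 summits in runs of 3 or more at most 50 kb apart were left out, with the IRF4 summits inside those runs. Background came from moving the p65 positions 0.2, 0.3, 0.5 and 1 Mb up and down (8 sets), leaving out positions beyond the outermost summit of a chromosome. Shares have 95% Wilson intervals. Alternatives changed the matching distance, flank, run length, shifts, chromosomes, score range and list; 6 more subsets of p65 for the flanking ratio were added after the data were seen. The 2 Fisher's exact tests, adjusted together by Benjamini-Hochberg, take summits as independent. Counting was tested on simulated summits. Tools were scipy 1.17.1, pandas 2.3.3, numpy 2.4.6 and matplotlib 3.10.9 under Python 3.11.15.

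The members, gene lists and rules were chosen with earlier results of these data known. Named summits were the 10 highest on-site p65, the 20 highest without IRF4 within 1 kb and the 10 with most flanking IRF4 (ties by p65 score). The 10 highest IRF4 without p65 within 50 kb and the 5 lowest p65 were named too. No mm9 annotation was used: gene spans were background knowledge rounded to 10 kb. In the GRCm38.p6 gene table the 42 genes lay on the same chromosomes in the same order, and 39 were no longer than their span; Icos, Prdm1 and Il1rl1 were longer. Exons, introns and start sites at the summits are therefore not stated.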

Additional observations from a re-analysis of the deposited data

Results flagged for a closer look

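The p65 summits left out of the comparisons, in crowded runs or unplaced sequence, also carried signal: 146 of 490 (29.8%, 95% Wilson interval 25.9 to 34.0) had a WT IRF4 summit within 200 bp. They are listed here because they lie outside the comparisons. The share was 25.7% among the 307 p65 summits that were compared, and the intervals overlapped.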

How the results depend on the processing

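The on-site share stayed within its interval (21.5% to 29.3%) under 9 alternatives and was 34.9% with summits above the median score of each list. The flanking ratio stayed above 1 under every alternative run and between 1.57 and 2.59 under 16. It was 3.48 with flanks of 0.2 to 10 kb, 3.18 with shifts of 2 to 5 Mb and 6.00 with crowded runs kept. The odds ratio of flanks with against without IRF4 on site kept its direction and missed the threshold under 10 alternatives (0.552 to 0.990). It was 0.527 (exact test, unadjusted p = 0.0463) with 1 summit per 1 kb and turned to 1.71 with crowded runs kept. That of p65 score ran from 1.33 to 1.78 under 9 alternatives and passed the threshold with runs joined at 25 kb (2.17), crowded runs kept (1.86) and the p65KO IRF4 list (2.33). The cause was not tested. Median IRF4 scores and counts of joined loci moved by less than their interval or 1.5 times. Where partners were sought within 1 kb, flanks were counted from 1 kb. No paired analysis was possible because each list pools its samples, and for the same reason no replicate could be left out. Depth could not be judged from summit lists.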
